A study of Mus musculus with 10 samples.

Results

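Transcript estimates that were high in some libraries and at 0 in others were followed in 10 mouse genes: Srrm1, Npm1, Zfp598, Zswim8, Cend1, Sulf2, Wdr81, Magt1, Alg10b and Insc. The list was drawn up from measured values of these same libraries, including the difference between drug and vehicle. The question asked of it was whether transcripts of a gene trade counts, that is, whether one falls where another rises while their sum holds. Of the 68 transcripts of these genes in the deposited table, 40 had 10 or more counts in at least 1 library and were described, and the other 28 were left out. They stand among 44480 transcripts past the same minimum in the whole table. A transcript was called all-or-none when it had 1 count or fewer in at least 1 library and 100 or more in at least 1 other. Of the 40 transcripts, 11 met this definition, in 9 of the 10 genes. Zfp598 held none. Over the whole series, 2818 of the 20827 transcripts that reached 100 counts met it, in 1948 genes.

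The libraries were made from total RNA of hippocampal synaptoneurosomes, a preparation enriched in pinched-off and resealed synaptic compartments. All mice were of the C57Bl/6J strain and wild type. Of the 10 libraries, 5 came from mice given vehicle and 5 from mice given AM6545, a CB1 cannabinoid receptor antagonist that enters the brain poorly, over a sub-chronic course. The labels give no dose, age or sex, and do not say whether a library held 1 animal or a pool, so n counts libraries and p-values measure only the spread between them. Library totals ran from 18106112 to 25899794 estimated counts, which puts 3 counts at 0.117 to 0.165 CPM (counts scaled to the library total, with TMM factors), a floor that covers counting error only. The neuronal transcripts Snap25 and Camk2a were at 2945 to 4492 and 245 to 390 CPM over the 10 libraries. Markers of other cells were present too, with Mbp of oligodendrocytes at 6516 to 15937 CPM, Gfap of astrocytes at 187 to 365, Cx3cr1 of microglia at 52.4 to 86.9 and Ttr of choroid plexus at 41.5 to 4654. Their part in the values below was not tested. In bulk RNA, fewer cells of a type and less RNA per cell cannot be told apart.

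A gene yields several transcripts through alternative promoters, splice sites and polyadenylation sites, and most exons are shared among them. A short read from a shared exon is compatible with every transcript that holds it, and quantification programs divide such reads among the candidates by likelihood. Only reads over a base or junction that one transcript alone has tell it from its neighbours. The 10 genes serve unlike functions: Srrm1 and Npm1 act in RNA processing and ribosome assembly, Zfp598 and Zswim8 in ubiquitin-linked quality control, Magt1, Alg10b and Sulf2 in building or trimming glycans, Wdr81 and Insc in endosomes and cell polarity, and Cend1 in neuronal differentiation.

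The coding sequences that separate the main pairs of transcripts are printed here. They tell the partners of a pair apart, but other transcripts of the gene may hold them too. Noncoding stretches, which also separate the partners, are not printed. Sequences and positions are those of GENCODE M21 on GRCm38 (mm10). All 40 transcripts had an entry in that release by identifier, but 38 carried a version 1 higher in the table and 2 a version 2 higher. The sequences used for counting may therefore differ from these. Capitals mark bases that the partner transcript lacks, and lower case the 15 bases on either side within the spliced transcript.

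Srrm1, on the minus strand of chr4:135320484-135353321, encodes a serine- and arginine-rich coactivator of splicing. Srrm1-202 and Srrm1-203 shared 3698 exon bases. Srrm1-202 alone had 42 coding bases, or 14 codons, at chr4:135329004-135329045. Srrm1-203 alone had 99 bases, of which 15 were coding, at chr4:135340608-135340622.
Srrm1-202: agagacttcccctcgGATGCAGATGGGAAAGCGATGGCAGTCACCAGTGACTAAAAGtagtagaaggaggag
Srrm1-203: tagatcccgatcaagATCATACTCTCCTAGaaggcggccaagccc

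Npm1, on the minus strand of chr11:33152287-33163206, encodes nucleophosmin, a nucleolar chaperone of ribosome assembly. Npm1-203 ends in a 3′ exon of its own of 104 bases at chr11:33155328-33155431, of which the 90 coding bases are printed. In its place Npm1-201 reads on through further exons, the first of them 75 bases at chr11:33153986-33154060.
Npm1-203: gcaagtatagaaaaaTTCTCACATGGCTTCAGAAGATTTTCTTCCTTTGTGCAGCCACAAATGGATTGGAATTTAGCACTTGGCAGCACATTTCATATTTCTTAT
Npm1-201: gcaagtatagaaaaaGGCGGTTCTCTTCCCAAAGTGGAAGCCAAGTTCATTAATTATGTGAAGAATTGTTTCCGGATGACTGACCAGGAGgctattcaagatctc

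Zfp598, on the plus strand of chr17:24669687-24682016, encodes a ubiquitin ligase that marks collided ribosomes. Every exon base of Zfp598-201 lay within Zfp598-202, which held 69 bases more. Of these, 9 were coding, at chr17:24678705-24678713.
Zfp598-202: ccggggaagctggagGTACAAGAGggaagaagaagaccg

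Zswim8, on the plus strand of chr14:20707552-20723619, encodes the substrate receptor of a cullin ubiquitin ligase known for microRNA decay directed by target RNAs. Zswim8-208 lay wholly within Zswim8-201, which held 122 bases more. Of these, 21 were coding, or 7 codons, at chr14:20716063-20716083.
Zswim8-201: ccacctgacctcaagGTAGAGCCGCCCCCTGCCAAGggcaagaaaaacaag

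Alg10b, on the plus strand of chr15:90224311-90233471, encodes a glucosyltransferase of the endoplasmic reticulum that acts late in building the lipid-linked glycan for N-glycosylation. Alg10b-202 lay wholly within Alg10b-201, whose last exon began 149 bases earlier, with coding bases at chr15:90227324-90227472. The annotated coding length was 1422 bases in Alg10b-201 and 468 in Alg10b-202.
Alg10b-201: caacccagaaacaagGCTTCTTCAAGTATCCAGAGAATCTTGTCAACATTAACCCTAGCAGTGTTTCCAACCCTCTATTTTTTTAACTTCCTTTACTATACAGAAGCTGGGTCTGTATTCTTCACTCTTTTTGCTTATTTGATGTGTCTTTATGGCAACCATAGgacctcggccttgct

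In the remaining genes the compared transcripts differed mainly outside the coding sequence. Insc-201 and Insc-208 (plus strand, chr7:114743694-114850383) both had 1596 coding bases and differed in 90 and 241 noncoding ones. The Cend1 transcripts (minus strand, chr7:141426446-141429491) shared a coding length of 447 bases, and the Sulf2 transcripts (minus strand, chr2:166073089-166155663) one of 2625. Wdr81-201 (minus strand, chr11:75440944-75454717) lay wholly within Wdr81-204, which held 283 bases more, 1 of them coding. Magt1-202 (minus strand, chrX:105968084-106011906) lay wholly within Magt1-204, of which it covered 35.5%. These pairs were chosen for comparison after their values were seen.

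Of the 40 transcripts, 30 were annotated as protein coding, 8 as retained introns and 2 as processed transcripts. The coefficient of variation (SD over mean) of their CPM over the 10 libraries ran from 11.8% to 316%, with a median of 78.0%. In 18 transcripts no library was at 0, and in 22 at least 1 was. All 5 vehicle libraries were at 0 in 8 transcripts, and all 5 AM6545 libraries in 1. The share of such transcripts over the whole table is not given here. The list was drawn up partly on the drug contrast, so nothing is read from these counts. The definition of all-or-none set its own boundary: just inside it lay Wdr81-204, Zswim8-201 and Insc-201 with highest counts of 106, 110 and 112, and just outside it Zfp598-201, Zswim8-208 and Zfp598-202 with 83, 78 and 77. The filter on low counts of the count model was passed by 29 of the 40, so the others have no fitted difference between the groups.

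Among the RNA-processing genes, Srrm1-202 had 0 counts in all 5 vehicle libraries and 260, 273, 120, 490 and 241 in AM6545 libraries 1 to 5. The groups did not overlap. Srrm1-203 had 582, 562, 421, 687 and 750 counts in the vehicle libraries and 480, 514, 417, 378 and 463 in the AM6545 libraries. Its ranges overlapped, with means of 27.3 ± 3.64 and 21.4 ± 4.23 CPM (SD, n = 5 each). The sum of this pair was 27.3 ± 3.64 and 34.0 ± 4.91 CPM, so that the counts of Srrm1-202 were not matched by Srrm1-203 alone. The retained-intron transcript Srrm1-212 was at 11.2 ± 3.17 CPM in vehicle and 5.72 ± 2.87 in AM6545 libraries, and Srrm1-207, another retained-intron form and the one with the highest mean count, at 25.9 ± 7.59 and 34.0 ± 6.06. The remaining forms, Srrm1-205 and Srrm1-206, were at 56 counts or more in every library.

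Npm1-203 ran the other way. It had 254, 29, 65, 136 and 31 counts in vehicle libraries 1 to 5 and 0 in all 5 AM6545 libraries. It varied widely among the vehicle libraries themselves, with a mean of 4.79 ± 4.55 CPM (SD, n = 5). Npm1-201, the full-length form, carried nearly all counts of the gene, at 122 ± 16.4 CPM in vehicle and 127 ± 14.1 in AM6545 libraries. Npm1-204, the transcript with the most negative covariance with Npm1-203, was at 5.36 ± 0.985 and 6.17 ± 0.586 CPM, and Npm1-202 and Npm1-205 stayed at 18 counts or fewer.

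**Figure D1:**
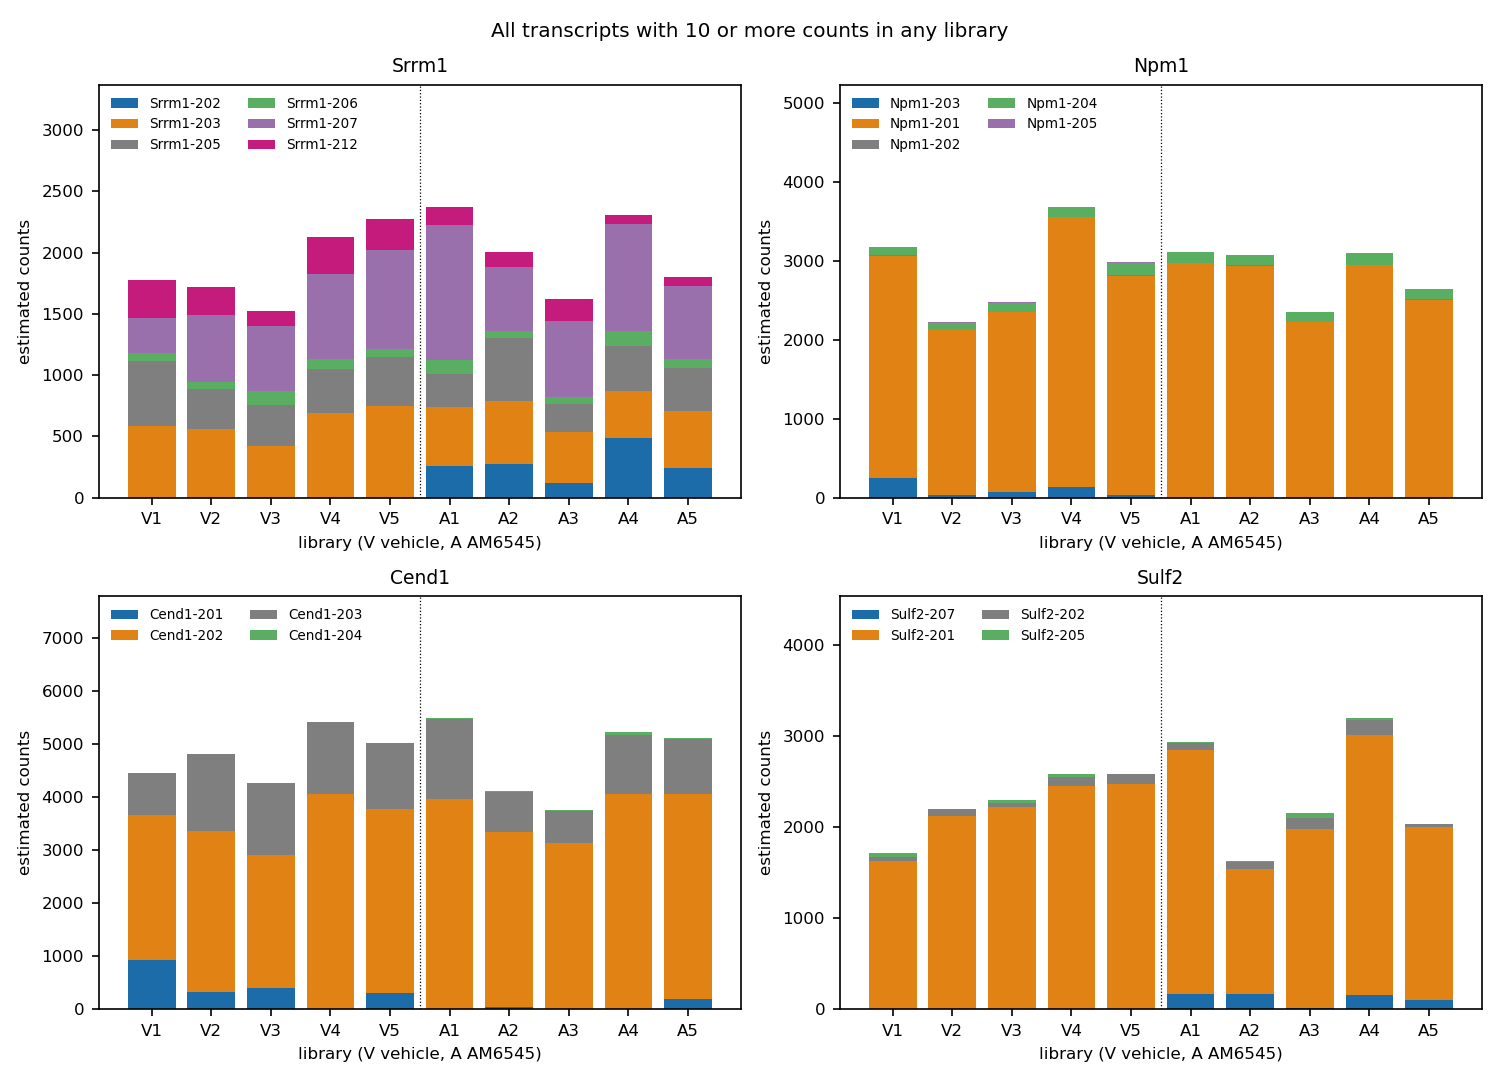
Estimated counts (vertical axis) of each transcript of Srrm1, Npm1, Cend1 and Sulf2 with 10 or more counts in any library, stacked by library (V1 to V5 vehicle, A1 to A5 AM6545; 1 bar per library, no averaging). Srrm1-202 and Sulf2-207 appear in the AM6545 bars alone and Npm1-203 in the vehicle bars alone, each as a minor part of a gene total whose groups overlap.

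In each of the quality-control genes one form had counts in every vehicle library and 0 in most AM6545 libraries. Another had 0 in all vehicle libraries and counts in every AM6545 library. Zfp598-202 had 59, 48, 44, 41 and 77 counts in the vehicle libraries and 37, 0, 0, 37 and 0 in the AM6545 libraries. Zfp598-201 had 0 in all vehicle libraries and 12, 83, 44, 10 and 49 in AM6545 libraries 1 to 5. The AM6545 libraries with 0 of the one form were those with the highest counts of the other. Their sum was 2.49 ± 0.606 CPM in vehicle and 2.58 ± 0.986 in AM6545 libraries. The retained-intron form Zfp598-203 had 3 to 15 counts in every library.

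Zswim8-201 had 15, 110, 56, 103 and 74 counts in the vehicle libraries and 0, 0, 0, 38 and 0 in the AM6545 libraries. Zswim8-208 had 0 in every vehicle library and 78, 64, 33, 40 and 48 in the AM6545 libraries. Only AM6545 library 4 held both forms. The sum of the pair was less even than for Zfp598, with a coefficient of variation of 40.9% over the 10 libraries, since vehicle library 1 held 15 counts in all. Zswim8-210 and Zswim8-214 were present in every library, at 41 to 68 and 34 to 93 counts, and 5 further forms stayed at 41 counts or fewer. The values of Zfp598-201, Zfp598-202 and Zswim8-208, and of Cend1-204 below, fall outside the rule for named transcripts and were picked after they were seen, and minor forms are given so that every transcript is accounted for.

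Among the glycan genes, Magt1 encodes a subunit of the oligosaccharyltransferase complex. Magt1-204 had 0 counts in all vehicle libraries and 490, 465, 0, 570 and 408 in AM6545 libraries 1 to 5. Magt1-202 was even, at 85 to 164 counts in all 10 libraries. The gene row of Magt1 held up to 608 counts more than these transcripts in a library. One row of the transcript table without an entry in M21, ENSMUST00000238718.2, matched the missing counts to within 0.01 in all 10 libraries. It had 403, 528, 519, 516 and 608 counts in the vehicle libraries and 0, 0, 506, 0 and 0 in the AM6545 libraries. It was at 0 exactly where Magt1-204 was not. The sum of this pair was 23.7 ± 3.17 CPM in vehicle and 23.0 ± 3.50 in AM6545 libraries. This match was looked for after the gap was seen.

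Alg10b-202 had 371, 198, 352, 502 and 473 counts in the vehicle libraries and 358, 197, 225, 303 and 0 in the AM6545 libraries. Alg10b-201 had 20, 135, 19, 19 and 19 counts in the vehicle libraries and 166, 215, 132, 129 and 267 in the AM6545 libraries. Alg10b-201 was highest in AM6545 library 5, where Alg10b-202 was at 0, and its high vehicle value lay in library 2, where Alg10b-202 was lowest of that group. Over the 10 libraries the SD was 6.22 CPM for Alg10b-202 and 4.48 for Alg10b-201, but 2.62 for their sum. Sulf2 encodes an extracellular enzyme that removes 6-O-sulfates from heparan sulfate. Sulf2-207 had 0 counts in all vehicle libraries and 163, 168, 17, 160 and 99 in the AM6545 libraries, beside 1368 to 2857 counts of Sulf2-201 over all 10. Sulf2-207 was at most 11% of that pair. Sulf2-202 had 34 to 159 counts and Sulf2-205 0 to 56, with 3 libraries at 0.

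Wdr81 encodes an endosomal protein that acts with Wdr91 in the control of phosphatidylinositol 3-phosphate. Wdr81-204 had 79, 100, 58, 106 and 90 counts in the vehicle libraries and 0, 81, 0, 0 and 0 in the AM6545 libraries. Wdr81-201 had 0 in all vehicle libraries and 102, 0, 74, 114 and 77 in the AM6545 libraries. No library held both, and their sum was 3.94 ± 0.657 CPM in vehicle and 4.16 ± 0.361 in AM6545 libraries. AM6545 library 2 had the vehicle pattern. Wdr81-202 was present throughout, at 54 to 91 counts.

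Insc encodes inscuteable, an adaptor that links polarity proteins to the spindle-orienting machinery. Insc-201 had 48, 83, 112, 40 and 74 counts in the vehicle libraries and 0, 0, 75, 0 and 0 in the AM6545 libraries. Insc-208 had 42, 0, 17, 94 and 52 counts in the vehicle libraries and 122, 123, 0, 146 and 104 in the AM6545 libraries. Both forms were mixed in 4 vehicle libraries, and AM6545 library 3 and vehicle library 2 held Insc-201 alone. The coefficient of variation over the 10 libraries was 101% for Insc-201, 77.7% for Insc-208 and 18.2% for their sum.

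Cend1 encodes a neuronal membrane protein of cell cycle exit and neuronal differentiation. Cend1-201 had 919, 320, 401, 0 and 297 counts in the vehicle libraries and 0, 37, 0, 0 and 191 in the AM6545 libraries, so that it was at 0 in both groups. Cend1-202, the leading form, had 2500 to 4056 counts in vehicle and 3128 to 4054 in AM6545 libraries, with means of 144 ± 14.4 and 171 ± 13.2 CPM. Cend1-203 was at 57.6 ± 13 and 45.6 ± 9.82 CPM. Cend1-204 had 0 counts in all vehicle libraries and 11, 30, 15, 74 and 29 in the AM6545 libraries.

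**Figure D2:**
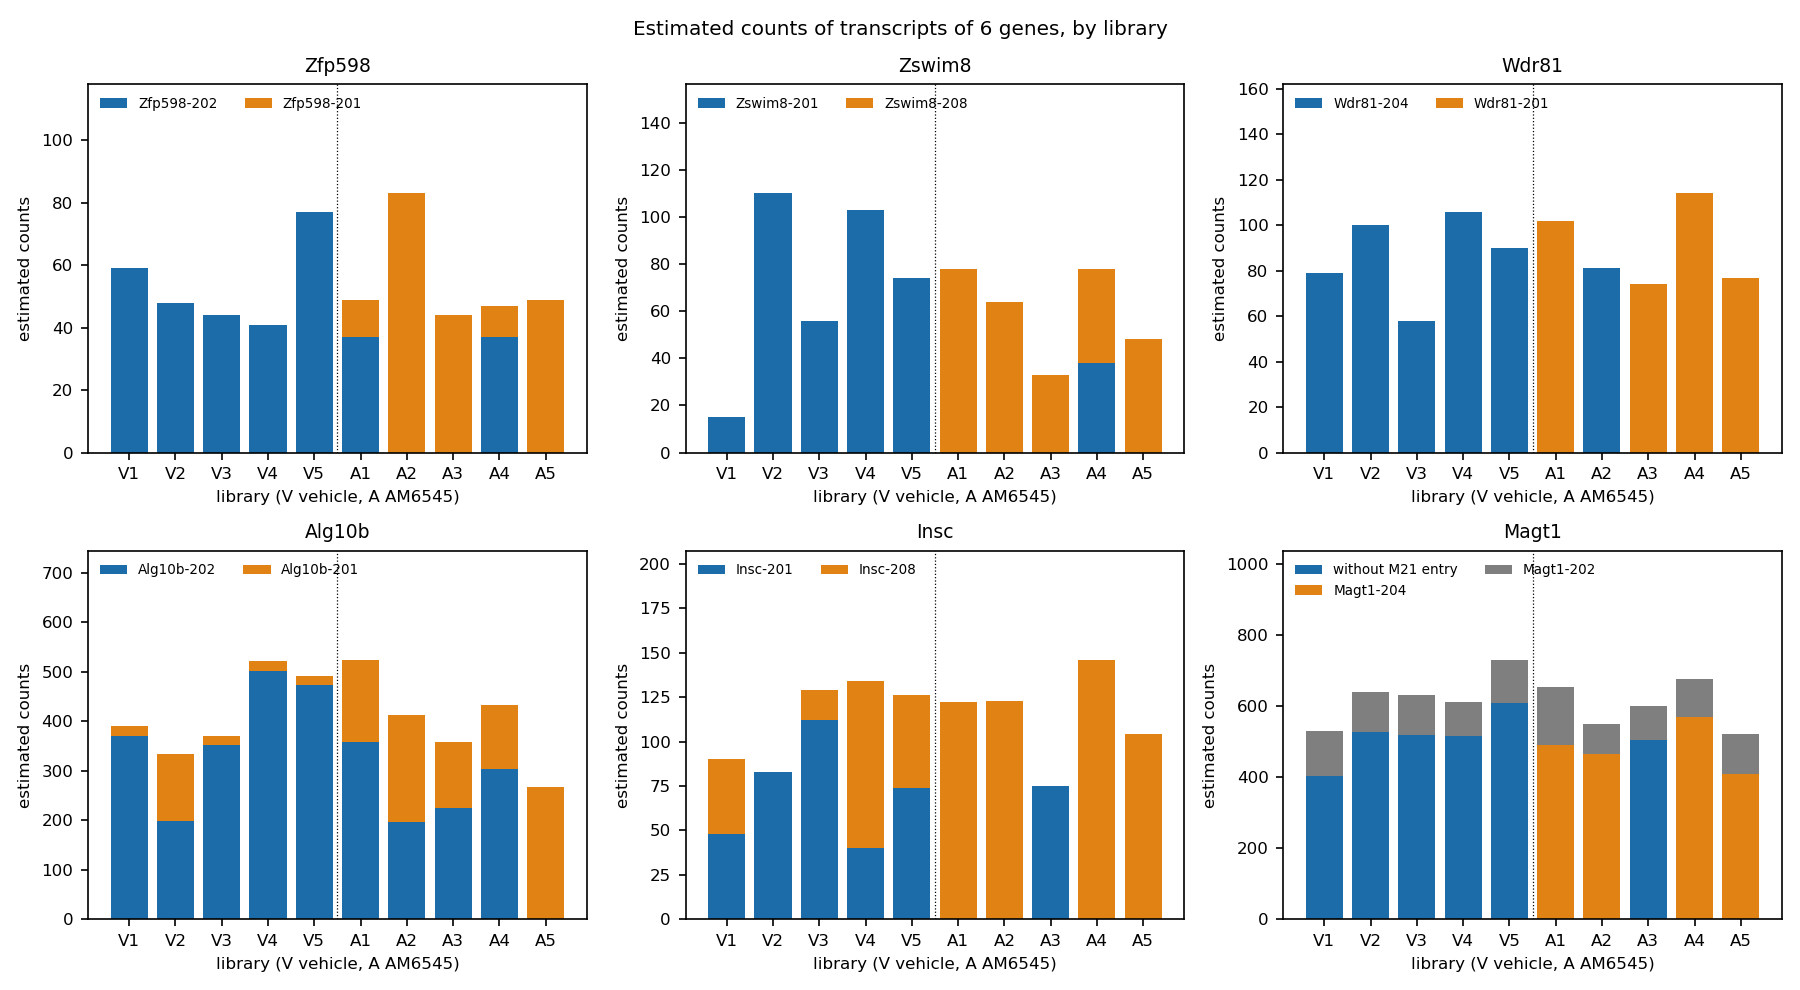
Estimated counts (vertical axis) by library (V1 to V5 vehicle, A1 to A5 AM6545; 1 bar per library, no averaging) of chosen transcripts of Zfp598, Zswim8, Wdr81, Alg10b, Insc and Magt1, stacked. Zfp598-203, Wdr81-202 and the forms of Zswim8 other than Zswim8-201 and Zswim8-208 are not drawn, so the bars of these genes are not gene totals. For Magt1 the row without an M21 entry is ENSMUST00000238718.2. In Wdr81 each bar holds 1 of the 2 forms, with A2 alone among the AM6545 bars showing Wdr81-204, and in Magt1 A3 alone among them shows the row without an M21 entry.

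In 8 of the 10 genes the row equalled the sum of the transcripts in every library. The coefficient of variation of the row was 5.84% for Cend1, 8.20% for Srrm1, 9.81% for Wdr81, 10.8% for Magt1, 12.4% for Npm1, 13.9% for Alg10b, 14.5% for Sulf2, 15.3% for Zswim8, 24.1% for Zfp598 and 100% for Insc. The row thus varied less than any all-or-none transcript of its gene except in Insc, where Insc-208 stood at 77.7%. Leading transcripts were about as even as their rows in Npm1 (Npm1-201, 11.8%) and Sulf2 (Sulf2-201, 15.2%). The groups overlapped in all 10 rows. Srrm1 had a log2 fold change of 0.13 (SE 0.0903), from 86.1 ± 6.85 to 94.1 ± 6.03 CPM (SD, n = 5 each). The fitted log2 fold changes of Npm1, Zfp598, Zswim8, Cend1, Sulf2, Wdr81, Magt1 and Alg10b lay between -0.06 (Alg10b) and 0.17 (Zswim8), with standard errors of 0.0878 to 0.218. Over the 10 rows the median was 0.01, with 6 above 0, beside -0.006 over all 14358 genes tested. The signs of the smallest differences are not firm. Leaving out 1 library turned those of Npm1, Zfp598, Cend1, Wdr81 and Alg10b, to as far as -0.06, -0.09, -0.05, 0.02 and 0.04. At gene level edgeR's quasi-likelihood test called 0 genes at an adjusted p under 0.05 (0% of those tested), with 270 at an unadjusted p under 0.05, and the DESeq2 Wald test also called 0. These differences entered the choice of the 10 genes and are given as a description.

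Insc was the exception among the rows. Its row held 48, 83, 112, 41 and 75 counts in the vehicle libraries and 0, 0, 75, 1 and 0 in the AM6545 libraries, nearly the counts of Insc-201 alone. The row fell short of the sum of the Insc transcripts by up to 146 counts, since the counts of Insc-208 were not in it. The row had a log2 fold change of -2.11 (SE 1.24), the lowest of all 14358 genes tested. Without AM6545 library 3 it was -7.65, past the threshold in edgeR's fit (adjusted p = 0.00012); the 4 other AM6545 rows hold 1 count in all, so the size of this fitted value depends on the model's prior count. Insc-208 belongs to Insc in M21, and whether the annotation used for counting places it there was not checked, so the sum and the ratios of the pair rest on M21. With Insc-208 added the gene stood at 5.21 ± 1.09 CPM in vehicle and 5.31 ± 0.931 in AM6545 libraries, and the log2 ratio of these means was 0.03. In Magt1 the reverse held, where the M21 transcripts alone gave 5.31 ± 0.851 and 22.6 ± 9.84 CPM while the row, which holds ENSMUST00000238718.2, gave 29.0 ± 3.39 and 28.2 ± 3.06.

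**Figure D3:**
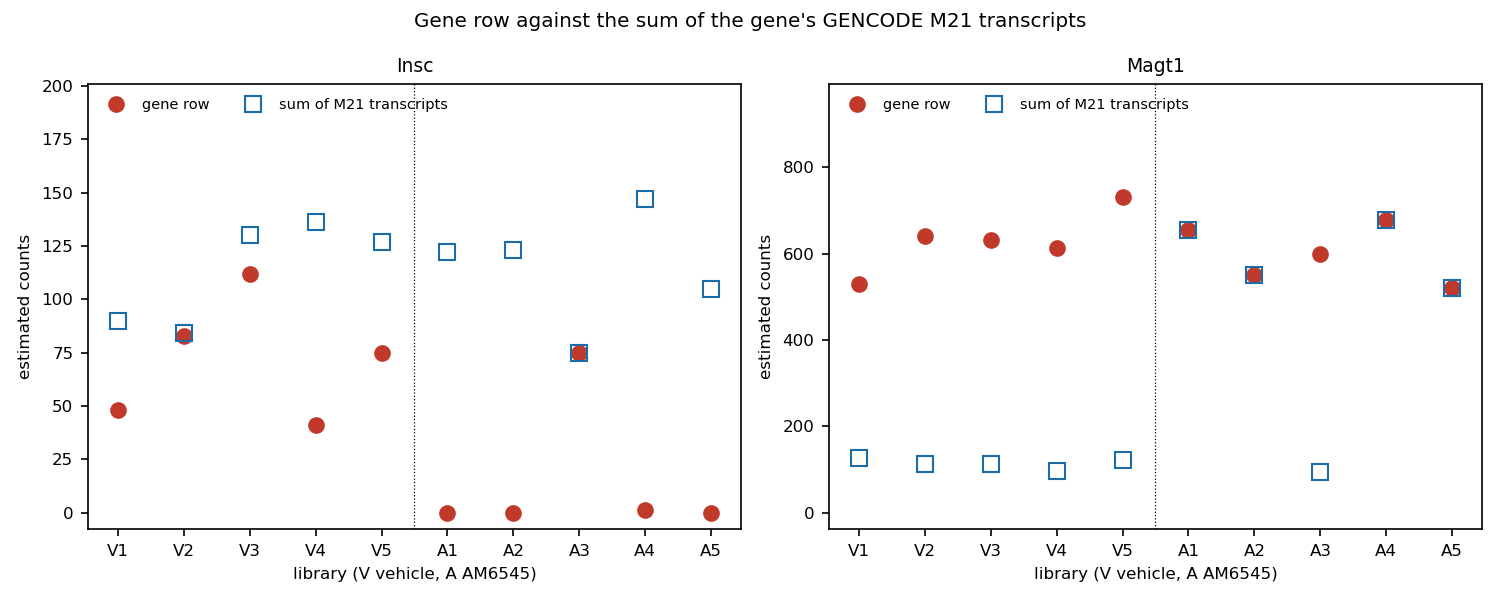
Estimated counts (vertical axis) by library (V1 to V5 vehicle, A1 to A5 AM6545) of the gene row (filled circles) and of the sum of the gene's GENCODE M21 transcripts (open squares) for Insc and Magt1, with 1 value per library. The row of Insc lies below the squares wherever Insc-208 had counts, and the row of Magt1 lies above them in the 5 vehicle libraries and A3.

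At transcript level edgeR's quasi-likelihood test called 1 of 31848 transcripts at an adjusted p under 0.05 (0.00314%), and it was Srrm1-202. This call did not hold in 8 of 10 fits that left out 1 library (it held without vehicle library 2 and without AM6545 library 3) or with the replicate number as a block, where 0 transcripts were called. The DESeq2 Wald test called 94 transcripts. A count of 0 throughout one group with 10 or more in every library of the other occurred in 5 of 44480 transcripts (0.0112%). The rule was applied to estimates before rounding, which leaves out Zfp598-201, whose 10 counts in AM6545 library 4 are a rounded value below 10. All 5 transcripts that met the rule were on the list: Srrm1-202, Zswim8-208, Cend1-204 and Sulf2-207 at 0 in vehicle, and Npm1-203 at 0 in AM6545. The list was chosen on this contrast, so nothing is read from either count.

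Trading was measured as a variance ratio: the variance over libraries of a gene's summed transcript CPM, divided by the sum of the variances of its transcripts. It is 1 where transcripts vary without net covariance and falls toward 0 where a loss in one is met by a gain in another. A permutation test (two-sided, 100000 resamples, library order shuffled separately for each transcript) was run on all 10511 genes with at least 2 transcripts past the minimum, with Benjamini-Hochberg adjustment over them. Over the 10 libraries 797 genes (7.58%) had a ratio under 1 with an adjusted p under 0.05. Another 281 had a ratio above 1 at that threshold. Leaving out 1 library at a time gave 477 to 633 genes below 1. The scale matters to this split: of all calls 73.9% were below 1 in CPM, but 36.1% on the counts as deposited (470 below and 831 above).

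Zfp598, Wdr81, Alg10b and Insc were called, 4 of the 10 genes. Wdr81 had the lowest ratio of them, 0.0579 (permutation test, adjusted p = 0.0366). Insc followed with 0.0866 and Alg10b with 0.117 (permutation test, adjusted p = 0.0135 for each), then Zfp598 with 0.128 (permutation test, adjusted p = 0.00846). Magt1 had a ratio of 0.979 over its M21 transcripts and of 0.0322 once ENSMUST00000238718.2 was included (permutation test, adjusted p = 0.828 and 0.0298). The calls were not equally firm: leaving out 1 library at a time kept Zfp598 and Insc in 10 of 10 fits and Alg10b in 9, where the loss came without AM6545 library 5 (permutation test, adjusted p = 0.0566). Wdr81 kept its call in 1 of 10, the fit without AM6545 library 2, and reached an adjusted p of 0.0946 in the permutation test without AM6545 library 4.

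The other genes were not called. Cend1 had a ratio of 0.224, Zswim8 of 0.288 and Srrm1 of 0.296 (permutation test, adjusted p = 0.0614, 0.115 and 0.149). These ratios depend on the setting: on the counts as deposited Cend1 had 0.694 and Srrm1 0.832, and without all-or-none transcripts Cend1 had 0.619 and Zswim8 2.05. On plain library totals Cend1 had 0.371, and over transcripts of 100 or more counts it was called, with 0.222 (permutation test, adjusted p = 0.0440). Cend1 was called without AM6545 library 5, with a ratio of 0.0599, and Zswim8 without AM6545 library 2, with a ratio of 0.115 (permutation test, adjusted p = 0.0134 and 0.0250). Sulf2 had a ratio of 0.982 and Npm1 of 1.18 (permutation test, adjusted p = 0.961 and 0.570). The measure weighs transcripts by their variance in CPM, and Sulf2-207 had an SD of 3.48 CPM over the 10 libraries beside 15.1 for Sulf2-201.

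The ratio over the 10 libraries includes the drug contrast on which the list was chosen. A second version took each transcript's deviations from its group mean, with the library order permuted within groups, and so does not use that contrast. The genes were also listed for estimates that jump between libraries, so the within-group values of the listed genes remain a description. Of all genes 267 (2.54%) were then called below 1. None of the 10 listed genes was called. In all of them but Alg10b and Insc a transcript was at 0 throughout 1 group, so that it had deviations only in the 5 libraries of the other. Permuting so few libraries limits how small a p-value its trading can reach. The lack of calls therefore does not show a lack of trading. Of the ratios of the 10 listed genes 9 were below 1, with a median of 0.380. Of all 10511 genes 6109 were below 1, with a median of 0.948. Among the 1926 genes with an all-or-none transcript 1546 were, with a median of 0.417. Alg10b had a ratio of 0.217 (permutation test, p = 0.00710, adjusted p = 0.0839), Zfp598 of 0.283 (p = 0.0107, adjusted p = 0.103, permutation test) and Insc of 0.136 (p = 0.0267, adjusted p = 0.158, permutation test). These 3 were the listed genes with an unadjusted p under 0.05, a level that 15.6% of all genes reached. Within groups Wdr81 had 0.147 and Magt1 with its added transcript 0.0783 (permutation test, adjusted p = 0.376 and 0.318), where 1 AM6545 library differed from the other 4 in each. Srrm1, Cend1, Zswim8, Sulf2 and Npm1 stood at 0.360, 0.399, 0.535, 0.980 and 1.25 (permutation test, adjusted p of 0.283 to 0.972).

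**Figure D4:**
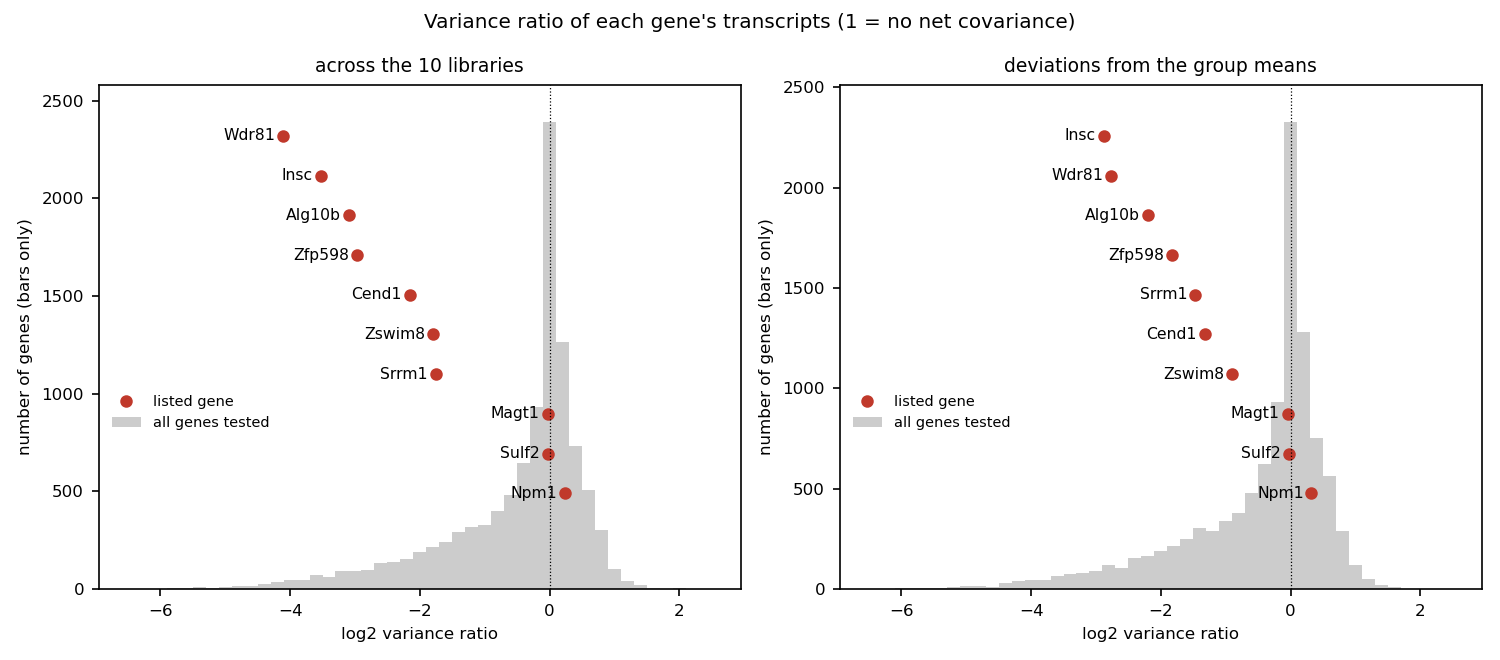
Variance ratio (log2 scale, horizontal axis) of the 10 listed genes (red points, placed at arbitrary heights) over the distribution for all 10511 genes tested (grey bars, number of genes on the vertical axis), across the 10 libraries (left) and as deviations from the group means (right). All listed genes but 3 lie left of 0 in both panels by a clear margin, while Magt1 (M21 transcripts only) and Sulf2 lie near 0 and Npm1 above it.

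The ratios of Wdr81, Insc, Alg10b and Zfp598 lay low among all genes tested, of which 1.3%, 2.82%, 4.4% and 5.03% were at or below them. As deviations from the group means the ranks were less extreme, at 6.04%, 5.39% and 9.49% for Wdr81, Insc and Alg10b. Zfp598 ranked higher still. The list was chosen on these same libraries, for jumping estimates and for the drug contrast. The ranks and the median ratio of its genes are therefore a description. The 1926 tested genes with an all-or-none transcript had a median ratio of 0.416, beside 0.256 for the 10 listed genes, and 467 of them (24.2%) were called over the 10 libraries. The 8585 other genes had a median of 0.987, and 330 (3.84%) were called. Within groups the shares were 8.98% and 1.09%. The definition of all-or-none itself asks for a large variance of single transcripts, so these shares are a description. Without the all-or-none transcripts 195 genes were called. Of the listed genes, Wdr81, Magt1, Alg10b and Insc then had under 2 transcripts left and could not be tested, while Zfp598, which holds none to remove, was called as before.

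The amount of sequence that a transcript has to itself did not enter the choice of the genes. An own word was defined as a run of 31 bases of a transcript that no other table transcript of its gene with an M21 sequence holds. Such words made up a median of 0.802% of the words of the 2755 all-or-none transcripts with a sequence and 6.56% of those of the 16877 other transcripts that reached 100 counts. Among the 11 listed all-or-none transcripts the median was 1.71%. Insc-208 and Wdr81-201 had no own word. Alg10b-202 had 27 (0.420%), Srrm1-202 27 (0.728%) and Cend1-201 28 (1.71%). Npm1-203 and Magt1-204 stood at the other end with 104 words (11.1%) and 445 words, the latter counted without ENSMUST00000238718.2, which has no M21 sequence. Zswim8-208 and Zfp598-201, outside the definition, had 25 and 26.

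The zeros were spread over the libraries. Each library held 1 count or fewer of 4 to 6 of the 11 transcripts, the 5 vehicle libraries of 4 or 5 and the 5 AM6545 libraries of 4 to 6. Over the 2818 all-or-none transcripts of the whole table the share was 29.3% to 40.0% per library, lowest in AM6545 library 1 and highest in AM6545 library 2. No library thus held most of the zeros. AM6545 library 1 had the highest total, 25899794 estimated counts, and AM6545 library 2 had 19437402. AM6545 library 3, with the lowest total, 18106112, stood at 37.9%. The part of depth in these shares was not tested.

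Outside the list, 3 genes were named as most like it, those of lowest ratio among 260 called genes with an all-or-none transcript of at least 5 CPM on average. Pitpnm2, of a family of phosphatidylinositol transfer proteins, had a ratio of 0.0126 over the 10 libraries, the lowest there, and of 0.0126 within groups (permutation test, adjusted p = 0.00467 and 0.0234). Pitpnm2-201 had 217, 0, 0, 279 and 213 counts in the vehicle libraries and 0, 250, 173, 242 and 0 in the AM6545 libraries. Pitpnm2-210 had 0, 253, 236, 0 and 75 counts in the vehicle libraries and 280, 0, 60, 58 and 213 in the AM6545 libraries. The exchange between these forms thus ran through both groups. Fbxo41, an F-box protein gene, had ratios of 0.0167 and 0.0140 (permutation test, adjusted p = 0.0133 and 0.0502), and the zinc finger gene Zfp58 ratios of 0.0144 and 0.0119 (permutation test, adjusted p = 0.00563 and 0.0450). In Fbxo41, Fbxo41-201 was at 0 in vehicle library 2 and AM6545 libraries 3 and 5, the 3 libraries where Fbxo41-203 had 571 to 692 counts.

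Partners, paralogs and pathway neighbours of the 10 genes were read from a list of 65 genes, among them SR proteins and Srrm2 for splicing, Gigyf2 and Ascc3 for stalled ribosomes, Elob and Cul3 for Zswim8, Stt3b and Ostc for the oligosaccharyltransferase, the other Alg enzymes, and Gpsm2 and Pard3 for cell polarity. Of 62 tested at gene level, edgeR called 0 between AM6545 and vehicle, with 1 at an unadjusted p under 0.05, and DESeq2 called 0. That one was U2af2, which encodes the large U2AF splicing factor subunit, with 11 ± 3.07 CPM under vehicle and 14.1 ± 1.97 under AM6545 (log2 fold change 0.35, SE 0.165, unadjusted p = 0.0474 in edgeR; SD over 5 libraries). Ostc, Numa1 and Dad1 came next, with log2 fold changes of -0.18, 0.16 and -0.19. The log2 fold changes of the 62 ran from -0.48 to 0.35 with 31 on either side of 0. The median was 0.00, beside -0.006 over all genes. A variance ratio could be had for 53 of the partners, and 1 of them (1.89%) was called as trading.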

How the data were processed

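RNA of hippocampal synaptoneurosomes was measured in 5 vehicle and 5 AM6545 libraries; per the labels, these were prepared with SMARTer Ultra Low Input chemistry. The authors deposited estimated counts, 22255 gene rows and 102392 transcript rows; 41.6% of the transcript values are not whole. Salmon 1.5.2 and mm10 are named in the submitters' processing notes, without a role; the annotation release and use of strand are not given in the sources used here. Estimates that share reads between transcripts carry an error these tables do not hold. The 10 genes and all lists were chosen with earlier results of these data known.

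Groups and replicate numbers came from sample titles. Estimated counts were rounded and tested in edgeR 4.0.16 (TMM, filterByExpr with minimum count 10, robust quasi-likelihood, group only, Benjamini-Hochberg adjustment, threshold 0.05; R 4.3.3), with DESeq2 1.42.0 as an alternative. Variance ratios of transcript CPM were computed in Python 3.11.15 with numpy 2.4.6 and numba 0.67.0. Both scripts were tested on simulated data. In edgeR, 2-fold changes were recovered for 44 of 50 genes and 15 of 50 transcripts, and 4-fold changes for 50 and 26. All 2-fold changes were increases and all 4-fold changes decreases, so size and direction cannot be told apart in these shares. There were 14 and 3 false calls. Few transcript calls therefore do not show that few transcripts changed. The variance ratio test recovered 195 of 200 trading pairs and called 1 of 800 independent pairs. Transcript names, sequences and exons are from GENCODE M21 (GRCm38). Of the 102392 transcript identifiers 101527 matched it without version.

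The text could name, within the 10 genes, every all-or-none transcript, the transcript of highest mean count and each all-or-none transcript's counterpart of most negative covariance. It could also name 3 other genes of lowest ratio and 4 partner genes of smallest p. Alternatives were other scalings, filters and tests, the replicate block, group deviations, removal of all-or-none transcripts and leaving out each library. Counts of transcripts assigned from gene totals were added after seeing the data.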

Additional observations from a re-analysis of the deposited data

Results flagged for a closer look

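In groups of 5 libraries, a value was singled out when its gap to the nearest other exceeded 0.71 of the group's range (Dixon's 95% limit). This held in 14 of 53 groups. Chance gives about 1 in 20 in groups chosen without regard to their values, but these genes were listed for estimates that jump between libraries, so the count is not set against chance. All values here are CPM.

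In 4 gene rows one AM6545 library stood above the rest. Npm1 was at 159 in library 2, with the others at 121 to 131. Zfp598 was at 4.44 in library 2, with the others at 2.33 to 2.92. Cend1 was at 253 in library 5, with the others at 207 to 218. Insc was at 4.13 in library 3, with the others at 0 to 0.0416.

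Among transcripts there were 10 such values. In AM6545 library 3, Insc-201 was at 4.13 with the others at 0, Insc-208 was at 0 with the others at 4.74 to 6.36, and Magt1-204 was at 0 with the others at 19.1 to 24.0. In AM6545 library 2, Wdr81-201 was at 0 with the others at 3.80 to 4.75, and Wdr81-204 was at 4.18 with the others at 0. Zswim8-201 was at 1.60 in AM6545 library 4 with the others at 0. Cend1-201 was at 9.42 in AM6545 library 5 with the others at 0 to 1.92, and Alg10b-202 was at 0 there with the others at 10.2 to 13.9. In vehicle library 2, Alg10b-201 was at 6.37 with the others at 0.785 to 1.0, and Alg10b-202 at 9.39 with the others at 18 to 20.5.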

How the results depend on the processing

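The 1 transcript called became 2 without the count filter, 94 in DESeq2 and 0 with the replicate block. On leaving out 1 library the number was 0 to 4, with 4 without AM6545 replicate 3. DESeq2 size factors left it at 1. With 10 or more counts in every library it was 0, but that filter drops Srrm1-202, at 0 in all vehicle libraries, before the test. That loss says nothing of the call. The 0 genes called became 0 to 1 on leaving out 1 library, with 1 without vehicle replicate 3 and 1 without AM6545 replicate 3; the other settings gave 0. The 797 trading genes became 470 on deposited counts, 267 as deviations from the group means (266 with added transcripts), 195 without all-or-none transcripts and 477 to 633 on leaving out 1 library (500, 502 and 477 without vehicle replicates 3, 4 and 5, and 531, 530 and 499 without AM6545 replicates 1, 3 and 4). The 4 listed genes called became 0 as deviations from the group means (0 with added transcripts too), 1 without all-or-none transcripts (where Wdr81, Alg10b and Insc had no ratio, so that the loss says nothing of them) and 3 to 5 on leaving out 1 library. As deviations, a transcript at 0 throughout a group can trade only in the other group, so that 0 does not show a lack of trading. No called ratio turned its direction, while the signs of the smallest fold changes of gene rows did, as given above. Among uncalled ratios, Zswim8 went above 1 without all-or-none transcripts (2.05), Sulf2 on deposited counts (1.10), without all-or-none transcripts (1.09) and without vehicle replicate 3 (1.05) or AM6545 replicate 2 (1.28), and Magt1 on deposited counts (1.03) and without AM6545 replicate 2 (1.01). The cause was not tested. With the replicate block the log2 fold change of Insc was -3.63. The labels do not say whether replicate numbers pair the libraries. Same-numbered deviations correlated from -0.186 to 0.393, and the same number was the best partner for vehicle replicates 3, 4 and 5. Pairing was thus not settled. Partner genes gave 0 calls in every setting run. Depth limits what a 0 shows, since it allows up to 3 counts (0.117 to 0.165 CPM), and transcript estimates have no error of their own here.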
